A study of Mus musculus with 8 samples.

Results

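Bulk RNA-seq counts of 10 p53 and GADD45 response genes were examined in MC38 tumors that had or had not been exposed to photoconverting light. The genes were Cdkn1a, Mdm2, Gadd45a, Gadd45b, Gadd45g, Bbc3, Ccng1, Phlda3, Trp53inp1 and Plk2. They were listed by name for their known role. All 10 were present among the 24421 genes of the count table, and all 10 were among the 14468 genes that passed the expression filter and were tested.

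MC38 is a mouse colon adenocarcinoma line, and 250000 cells were injected into female C57BL/6 Kaede mice aged 9 weeks. Kaede is a protein of the host's cells that turns from green to red fluorescence under violet light. In the photoconverted group (n = 4 tumors) 405-nm light was directed through the skin at the tumor during 3 min of day 10, and in the control group (n = 4 tumors) no light was given. All tumors were collected 5 h after the time of light exposure and sequenced whole, so that each value is a sum over tumor, immune, vascular, muscle and skin cells. The experiment asked whether photoconversion itself alters the tumor.

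p53 is a transcription factor that is stabilized when DNA is damaged, and it then switches on genes that stop the cell cycle, repair DNA, kill the cell or shut p53 down again. Cdkn1a encodes p21, the inhibitor of cyclin-dependent kinases that carries out p53's arrest in G1, and Mdm2 encodes the ubiquitin ligase that degrades p53. The GADD45 proteins are small stress sensors that bind the MAP3K4 kinase, PCNA and the CDK1 complex. Gadd45a is a classical p53 target, whereas Gadd45b and Gadd45g also answer to cytokines and NF-kB without p53. Plk2, a polo-like kinase, is both a p53 target and an early response gene to growth factors.

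The sequences before the start sites of these genes are shown first as a place where p53 or other factors could bind. Introns and sequence farther from the start were not searched, so that the lack of a match says nothing about binding elsewhere. RefSeq start sites on GRCm38.p6, the assembly that mm10 names, were found for 9 of the 10 genes. Each window is the 250 bases before the start, 5′ to 3′ on the strand of the gene. Capitals mark matches to the p53 half-site decamer in the first 3 sequences, to the cyclic AMP response element TGACGTCA in Plk2, and to the TATA box TATAAA in Gadd45g, searched on both strands. The windows lie at chr17:29090729-29090978 (plus strand, upstream start of Cdkn1a), chr10:117710759-117711008 (minus strand), chr11:40755287-40755536 (minus strand), chr13:110394794-110395043 (plus strand) and chr13:51846425-51846674 (plus strand).
Cdkn1a: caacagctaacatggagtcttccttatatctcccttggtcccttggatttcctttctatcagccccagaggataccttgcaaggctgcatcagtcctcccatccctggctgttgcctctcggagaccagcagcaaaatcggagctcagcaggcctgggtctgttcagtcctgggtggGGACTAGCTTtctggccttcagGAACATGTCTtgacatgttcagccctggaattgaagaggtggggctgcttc
Mdm2: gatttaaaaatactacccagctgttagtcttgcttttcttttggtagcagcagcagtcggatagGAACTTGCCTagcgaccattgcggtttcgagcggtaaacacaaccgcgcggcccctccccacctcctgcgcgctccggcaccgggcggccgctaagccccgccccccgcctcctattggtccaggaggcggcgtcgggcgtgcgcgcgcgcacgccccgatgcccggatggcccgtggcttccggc
Ccng1: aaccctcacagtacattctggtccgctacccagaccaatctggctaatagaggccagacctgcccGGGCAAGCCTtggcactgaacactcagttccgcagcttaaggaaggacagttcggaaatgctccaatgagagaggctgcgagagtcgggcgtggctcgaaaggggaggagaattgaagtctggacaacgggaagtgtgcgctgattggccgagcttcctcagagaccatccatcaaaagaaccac
Plk2: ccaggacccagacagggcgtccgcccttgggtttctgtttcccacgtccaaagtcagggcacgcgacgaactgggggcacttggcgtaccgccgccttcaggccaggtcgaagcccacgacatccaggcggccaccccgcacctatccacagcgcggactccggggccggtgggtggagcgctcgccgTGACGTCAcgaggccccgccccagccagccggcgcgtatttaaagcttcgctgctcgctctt
Gadd45g: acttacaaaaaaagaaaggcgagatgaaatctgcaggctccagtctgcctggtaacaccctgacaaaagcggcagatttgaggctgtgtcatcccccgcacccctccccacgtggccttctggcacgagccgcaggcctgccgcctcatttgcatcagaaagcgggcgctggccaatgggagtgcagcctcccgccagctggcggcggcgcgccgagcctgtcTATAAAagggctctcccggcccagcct

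The upstream start of Cdkn1a held 2 p53 half-site matches, at bases -73 to -64 and -51 to -42 from the start. Mdm2 and Ccng1 each held 1 match, at bases -186 to -177 and -185 to -176. Gadd45a was the only other member with a match, so that 4 of the 9 members, and 4 of their 12 windows, had one, where 7.13% of 32851 windows of all genes did. Plk2 alone held TGACGTCA (1.55% of all windows), at bases -62 to -55. TATAAA was found in Gadd45b and Gadd45g (12.4% of all windows), and in Gadd45g it began 27 bases before the start. The serum response element known as the CArG box, the AP-1 letters TGAGTCA and the heat shock letters GAANNTTC were in no window of these 9 genes (1.47%, 4.46% and 6.69% of all windows). A match is only a run of letters, and no binding was measured.

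Total counts were between 12576615 and 35844417 per tumor, and each member had between 62 and 6132 raw counts in every tumor. The share of counts on Rn45s, the precursor of ribosomal RNA, was 21.9% to 35.7% in photoconverted tumor 4 and control tumors 2 and 4 and at most 9.65% in the other 5. These 3 tumors stood apart in many genes, and members that moved with the share are given below with and without them. The 8 markers listed for colon epithelium summed to only 3.62 to 6.60 CPM, with no count of Cdx2 in any tumor, so that the epithelial origin of MC38 was barely visible in RNA. Levels are given as CPM, the counts scaled to library size with TMM factors. Each library came from the tumor of 1 mouse.

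Levels per kilobase of exon were compared between the members in control tumors. Ccng1, which encodes the p53-induced cyclin G1, was highest with 24.2 ± 4.42 CPM per kb, followed by Phlda3 (21.1 ± 7.60), Cdkn1a (17.4 ± 6.12), Plk2 (16.5 ± 6.12), Gadd45b (15.9 ± 5.47) and Gadd45a (15.4 ± 9.15). Gadd45g (9.89 ± 4.21), Mdm2 (9.05 ± 0.439) and Bbc3 (7.62 ± 3.50) were lower, and Trp53inp1 was lowest with 1.61 ± 0.860 CPM per kb (SD, n = 4 for all). The ranges of neighbors in this order overlapped, except that Trp53inp1 (0.726 to 2.46) lay below Bbc3 (3.90 to 11.7). Mdm2 had the narrowest range of all 10 genes, from 8.57 to 9.46 CPM per kb. All 10 genes were thus transcribed in tumors that had received no light.

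None of the 10 genes passed the threshold between photoconverted and control tumors. Their adjusted p was 0.999 for each (quasi-likelihood test of edgeR, adjusted over all genes after Benjamini and Hochberg), and 0 of 14468 genes (0%) were called in this test. At an unadjusted p under 0.05, the test held 0 of the 10 members and 322 of all genes (2.23%). DESeq2's Wald test called 24 of 16741 genes (0.143%), none of them a member. The log2 fold changes of the members lay between -0.29 and 0.70, with 6 above 0 and 4 below, and their median was 0.04 against -0.01 for all genes tested. The plot of fold changes shows that every 95% interval included 0.

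**Figure D1:**
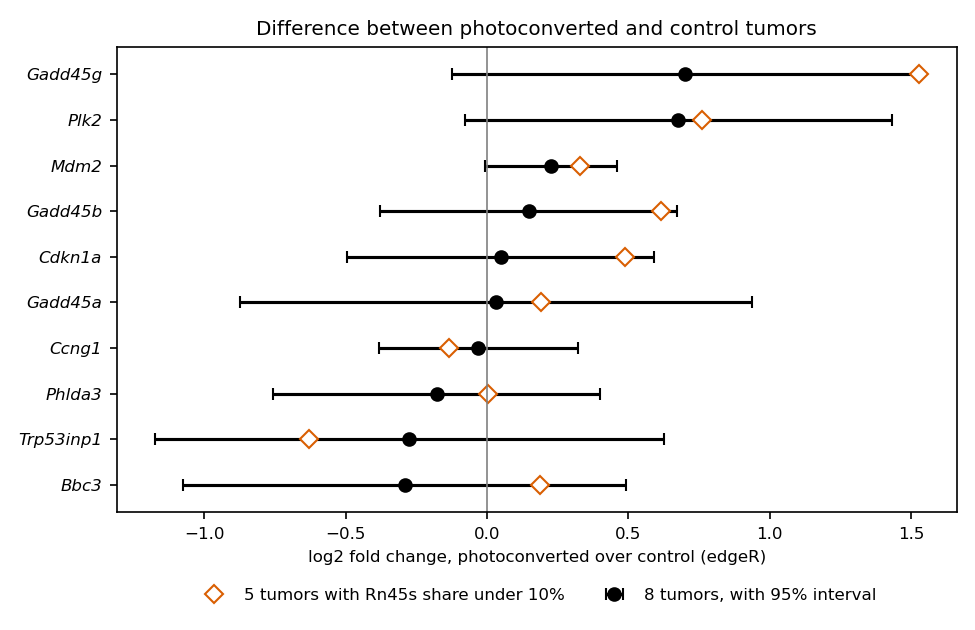
The log2 fold change of each gene in photoconverted over control tumors from edgeR (x axis) is drawn as a filled circle with its 95% interval for all 8 tumors, and as an open diamond for the 5 tumors with an Rn45s share under 10%. Gadd45g, Plk2 and Mdm2 lie farthest to the right with all 8 tumors, and each interval reaches below 0.

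Mdm2 was the one member whose groups did not overlap. Photoconverted tumors 1 to 4 had 55.5, 51.5, 59.0 and 48.9 CPM, while control tumors 1 to 4 had 43.5, 47.6, 44.6 and 48.1 CPM. Every photoconverted tumor was thus above every control tumor, although photoconverted tumor 4 exceeded control tumor 4 by under 1 CPM. The mean was 53.7 ± 4.46 CPM in photoconverted tumors, against 46.0 ± 2.23 CPM in controls (SD, n = 4 each), and the two-sided exact permutation test gave p = 0.0286, the smallest p that 4 tumors against 4 allow. Groups without overlap and with higher photoconverted values were found in 0.684% of all genes, and with lower values in 0.643%, so that 1 of 10 members is a count too small to be read against this background. The log2 fold change was 0.23 (standard error 0.10), which is 1.17-fold, with a 95% interval from 0.994-fold to 1.38-fold. Mdm2 was higher in the photoconverted tumor in 4 of 4 same-numbered pairs, by 0.35, 0.11, 0.40 and 0.02 on the log2 scale, as were 7.2% of all genes. The neutrophil markers moved in the same direction, with a sum over 9 of 9 genes of 57.7 to 183 CPM in photoconverted tumors, against 46.0 to 78.7 CPM in controls, and their part in the Mdm2 difference was not tested. Fewer cells of a type and less RNA per cell cannot be told apart in these bulk samples.

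**Figure D2:**
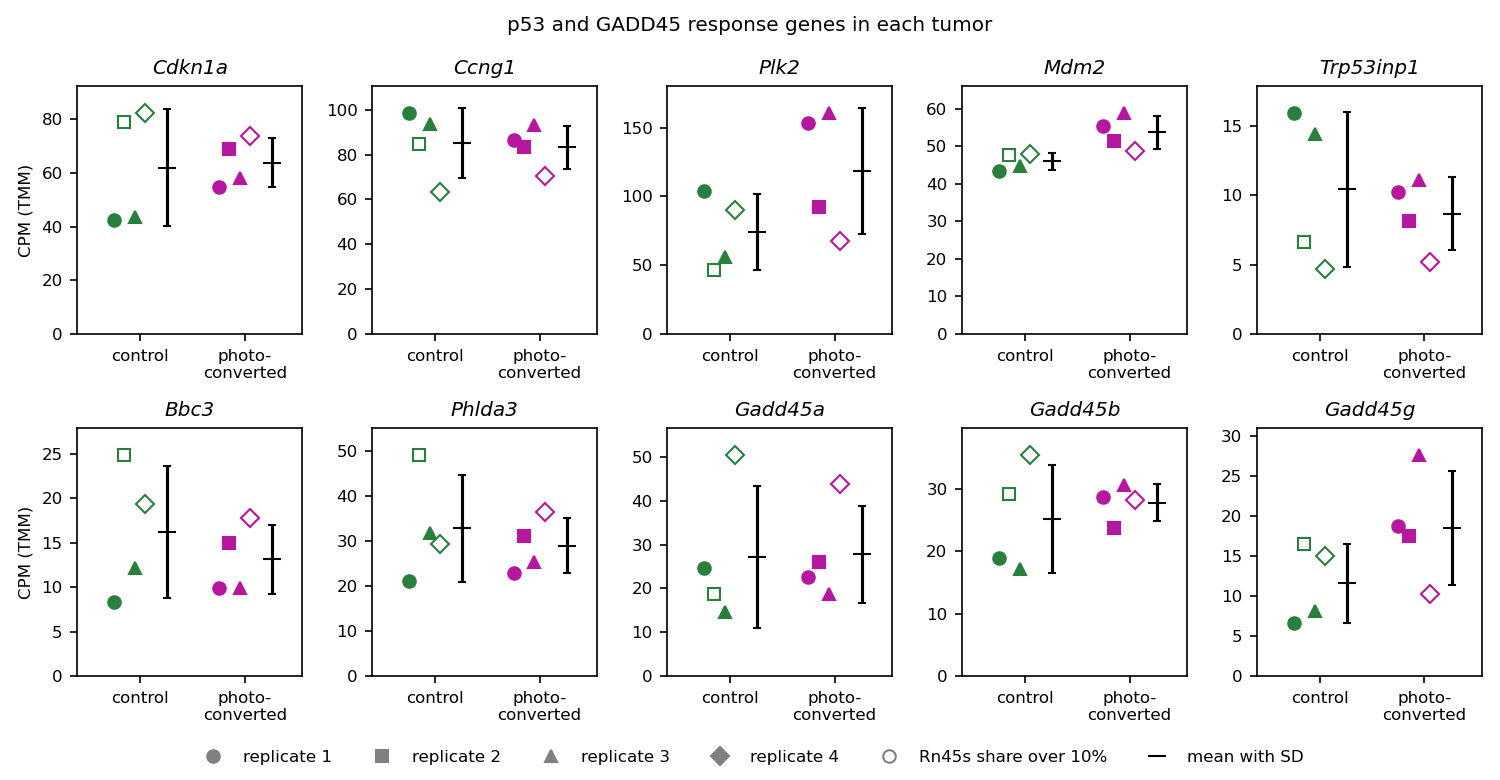
CPM of each of the 10 genes (y axes from 0) in 4 control (green) and 4 photoconverted (magenta) tumors, with a marker shape for each replicate number, open markers for the 3 tumors with an Rn45s share over 10%, and the mean with SD beside each group. The groups are apart only for Mdm2, and open markers lie at the top for Cdkn1a and Bbc3 and at the bottom for Trp53inp1.

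Among the arrest genes, Cdkn1a was at nearly the same mean level in both groups. Photoconverted tumors 1 to 4 had 54.6, 68.8, 58.0 and 73.8 CPM, while control tumors 1 to 4 had 42.5, 78.9, 43.6 and 82.4 CPM. The photoconverted values fell between the 2 low and the 2 high control values, so that the groups overlapped fully. The means were 63.8 ± 9.01 and 61.8 ± 21.8 CPM (SD, n = 4 each; log2 fold change 0.05, standard error 0.24; two-sided exact permutation test, p = 0.686). The 95% interval ran from 0.710-fold to 1.51-fold. With the replicate block the log2 fold change was 0.11 (standard error 0.13), and with the log2 Rn45s share as a covariate it was 0.19 (standard error 0.09, adjusted p = 0.714 in edgeR). An annotated transcript of unknown status lies on the opposite strand of Cdkn1a, and the sources used here do not say whether counting used strand.

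Plk2 had the highest CPM of the 10 genes in photoconverted tumors 1 to 3 and in control tumors 1 and 4. Photoconverted tumors 1 to 4 had 153, 92.1, 161 and 68.0 CPM, while control tumors 1 to 4 had 104, 46.6, 55.7 and 90.4 CPM. Photoconverted tumors 1 and 3 were above all controls, whereas photoconverted tumors 2 and 4 lay among them. The means were 119 ± 45.7 and 74.2 ± 27.5 CPM (SD, n = 4 each), a 1.60-fold difference with a 95% interval from 0.946-fold to 2.70-fold (log2 fold change 0.68, standard error 0.34; two-sided exact permutation test, p = 0.143). With the replicate number as a block, Plk2 was the single member of 10 with an unadjusted p under 0.05, where 6.01% of all genes had one and 0% passed the adjusted threshold. The neutrophil markers, which are given with Mdm2, were highest in photoconverted tumors 1 to 3. Plk2, in contrast, was lower in photoconverted tumor 2 than in control tumor 1. The mean log2 CPM of the neutrophil markers had Pearson's r = 0.82 with Plk2 and r = 0.78 with Mdm2 over the same 8 libraries. Their part in the Plk2 values was not tested. The relatives of Plk2, Plk1, Plk4 and Plk3, likewise did not pass, and Plk3 had 36.9 ± 2.61 CPM in photoconverted tumors, against 29.5 ± 9.39 CPM in controls (SD, n = 4 each).

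The log2 fold changes of the GADD45 genes were 0.70 for Gadd45g, 0.15 for Gadd45b and 0.03 for Gadd45a. Gadd45g had 18.8, 17.5, 27.7 and 10.3 CPM in photoconverted tumors 1 to 4 and 6.62, 16.6, 8.18 and 15.0 CPM in control tumors 1 to 4. Photoconverted tumors 1 to 3 were above every control, and photoconverted tumor 4 was below control tumors 2 and 4. The means were 18.6 ± 7.15 and 11.6 ± 4.94 CPM (SD, n = 4 each), and the 1.62-fold difference had a 95% interval from 0.918-fold to 2.87-fold (log2 fold change 0.70, standard error 0.37; two-sided exact permutation test, p = 0.143). The skeletal muscle markers summed to 207 to 1735 CPM in photoconverted tumors, against 210.0 to 506 CPM in controls. With a muscle score as a covariate, the log2 fold change was 0.38 for Gadd45g (standard error 0.40), 0.46 for Plk2 (0.38) and 0.18 for Mdm2 (0.11). Some other members were higher with this covariate than without it, such as Gadd45a (0.49). Gadd45g had Pearson's r = 0.58 with the muscle, 0.59 with the neutrophil, 0.59 with the colon epithelium and 0.565 with the keratinocyte markers. Its r was 0.37 with the endothelial, 0.087 with the macrophage and 0.064 with the T cell markers. Mdm2 had r = 0.64 with the muscle and r = 0.595 with the keratinocyte markers. The part of these cells was not tested.

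Gadd45b had 28.7, 23.7, 30.6 and 28.2 CPM in photoconverted tumors and 18.9, 29.2, 17.2 and 35.5 CPM in control tumors. Its photoconverted values were close together (27.8 ± 2.94 CPM), whereas the controls split into a low and a high pair (25.2 ± 8.70 CPM; SD, n = 4 each; log2 fold change 0.15, standard error 0.23; two-sided exact permutation test, p = 0.457). Gadd45a had 22.5, 26.1, 18.8 and 43.8 CPM in photoconverted tumors and 24.6, 18.6, 14.7 and 50.5 CPM in control tumors. In both groups tumor 4 had by far the most Gadd45a, and the other 6 tumors lay together between 14.7 and 26.1 CPM. Over the 8 libraries, Gadd45a had Pearson's r = -0.94 with the mean log2 CPM of 7 T cell markers. With that of 5 endothelial markers it had r = -0.90, with 8 macrophage markers r = -0.84 and with the muscle markers r = -0.63. For the neutrophil, colon epithelium and keratinocyte markers r was -0.29, -0.28 and -0.26. The part of these cells was not tested. The log2 fold change of Gadd45a was 0.03 (standard error 0.40; two-sided exact permutation test, p = 0.743), and its 95% interval from 0.546-fold to 1.91-fold was among the widest of the 10 genes. Gadd45a overlaps E230016M11Rik on the opposite strand, which had 38 to 165 counts per tumor against 174 to 901 for Gadd45a.

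The genes of cell death and AKT control had lower means in photoconverted tumors, within the spread. Bbc3, which encodes the BH3-only protein PUMA that triggers apoptosis downstream of p53, had 9.91, 15.0, 9.93 and 17.8 CPM in photoconverted tumors, against 8.28, 24.9, 12.1 and 19.4 CPM in controls. In each group replicates 2 and 4 were the high ones, and the groups overlapped (log2 fold change -0.29, standard error 0.35; two-sided exact permutation test, p = 0.600). Trp53inp1, a nuclear protein that helps p53 to act on death genes, had 10.2, 8.15, 11.1 and 5.19 CPM in photoconverted tumors, against 15.9, 6.64, 14.4 and 4.70 CPM in controls. Here replicates 1 and 3 were high and replicates 2 and 4 low in each group (log2 fold change -0.28, standard error 0.40; two-sided exact permutation test, p = 0.771). Phlda3, a p53-induced inhibitor of AKT, ranged from 22.8 to 36.4 CPM in photoconverted tumors, against 21.1 to 49.2 CPM in controls (log2 fold change -0.18, standard error 0.26; two-sided exact permutation test, p = 0.657).

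Ccng1 belongs with Mdm2 to the negative feedback on p53, and its mean was nearly the same in both groups. It had 86.3, 83.3, 93.1 and 70.3 CPM in photoconverted tumors, against 98.8, 84.7, 93.4 and 63.5 CPM in controls. The ranges of the groups overlapped, with tumor 4 lowest in each. Ccng1 had Pearson's r = 0.95 with the macrophage, 0.91 with the T cell and 0.81 with the endothelial markers over the 8 libraries. For the muscle, neutrophil, keratinocyte and colon epithelium markers r was 0.62, 0.42, 0.29 and -0.12. The part of these cells was not tested. The means were 83.2 ± 9.54 and 85.1 ± 15.5 CPM (SD, n = 4 each; log2 fold change -0.03, standard error 0.16; two-sided exact permutation test, p = 0.886). After Mdm2, Ccng1 had the narrowest 95% interval, from 0.767-fold to 1.25-fold.

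The members also differed in how they followed the Rn45s share of the libraries, as the plot against that share shows. In the 3 tumors with a share over 10%, Cdkn1a (73.8 to 82.4 CPM) and Bbc3 (17.8 to 24.9 CPM) were above all of the other 5 tumors (42.5 to 68.8 and 8.28 to 15.0 CPM). Such an order was held by 2 of 10 members and by 23.4% of all genes tested. Trp53inp1 was the opposite case, with 4.70 to 6.64 CPM in the 3 tumors and 8.15 to 15.9 CPM in the other 5, an order held by 1 of 10 members and by 21% of all genes. Neither share exceeded that of all genes. Mdm2 did not split this way, with 47.6 to 48.9 CPM in the 3 tumors, inside the 43.5 to 59.0 CPM of the other 5. Cdkn1a and Bbc3 were thus high where Trp53inp1 was low.

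**Figure D3:**
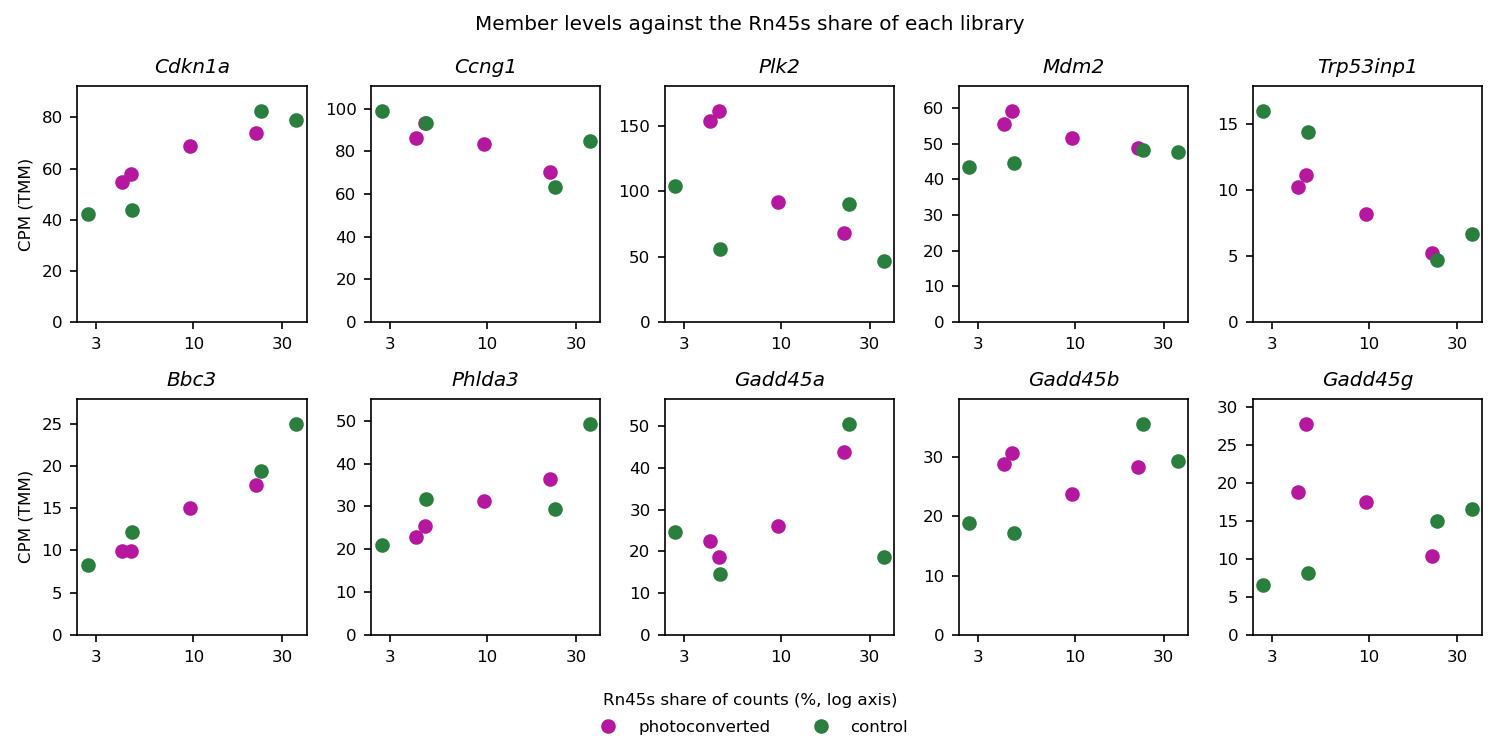
CPM of each of the 10 genes (y axes from 0) against the Rn45s share of counts (x axes, percent, log scale) in photoconverted (magenta) and control (green) tumors. Cdkn1a and Bbc3 are highest and Trp53inp1 is lowest in the 3 tumors at the right, and at shares under 10% the 3 photoconverted tumors lie above the 2 controls for Cdkn1a, Mdm2, Gadd45b and Gadd45g.

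The 5 tumors with a share under 10%, of which 3 were photoconverted and 2 were controls, were fitted on their own. The other 3 held a single photoconverted tumor and were too few for a fit. Gadd45g had a log2 fold change of 1.53 (standard error 0.23, adjusted p = 0.0603 in edgeR), which is 2.88-fold and was the nearest of the members to the threshold. Gadd45b (log2 fold change 0.62, adjusted p = 0.202 in edgeR), Cdkn1a (0.49, adjusted p = 0.226) and Mdm2 (0.33, adjusted p = 0.331) also had higher values in all 3 photoconverted than in both control tumors. Such an order was held by 4 of 10 members and by 14% of all genes. Trp53inp1 (log2 fold change -0.63, adjusted p = 0.260 in edgeR) and Ccng1 (-0.14, adjusted p = 0.655) had lower values in all 3 photoconverted tumors, where 14.4% of all genes did. Bbc3 (log2 fold change 0.19, adjusted p = 0.826 in edgeR) and Phlda3 (0.0039, adjusted p = 0.997) turned from below to above 0. At an unadjusted p under 0.05 there were 6 of 10 members and 10.5% of all genes, whereas none of the members was among the 42 genes called (0.275%) in these 5 tumors. When all 8 tumors were kept and the log2 Rn45s share was fitted as a covariate, Mdm2 and Gadd45g were the 2 members with an unadjusted p under 0.05 (6.98% of all genes), and their adjusted p was 0.665 and 0.689 in edgeR. The fit of 5 tumors rests on 2 controls and leaves out photoconverted tumor 4, which had the lowest Mdm2, Plk2 and Gadd45g of its group.

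Of 32 other p53 targets, all 32 were tested, and 0 rose or fell past the adjusted threshold. Their median log2 fold change was -0.03 against -0.01 for all genes, with 15 above 0 and 17 below. In edgeR 3 of the 32 had an unadjusted p under 0.05, against 2.23% of all genes. Btg2 and Sesn1 were among these. With the replicate block, 8 of the 32 had an unadjusted p under 0.05, against 6.01% of all genes. Btg2, an antiproliferative early response gene, had 33.2, 35.7, 46.8 and 16.9 CPM in photoconverted tumors, against 24.0, 23.0, 20.8 and 14.9 CPM in controls (log2 fold change 0.68, standard error 0.29; two-sided exact permutation test, p = 0.114). In Btg2, photoconverted tumors 1 to 3 were above every control tumor and photoconverted tumor 4 was not. Sesn1, a sestrin that restrains mTORC1, had 17.5 to 18.5 CPM in photoconverted tumors, against 17.8 to 30.1 CPM in controls (log2 fold change -0.41, standard error 0.17; two-sided exact permutation test, p = 0.114). Its photoconverted values were close together and its controls were spread upward. Epha2, an ephrin receptor, was the 1 gene of these 32 called in the 5 tumors with a low Rn45s share, where 0.275% of all genes were called. Its log2 fold change was 0.98 there (adjusted p = 0.0101 in edgeR), and with all 8 tumors it was 0.44 (adjusted p = 0.999).

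Trp53 encodes p53 itself, and many of its regulators are ubiquitin ligases or kinases. Trp53 had 103, 109, 104 and 114 CPM in photoconverted tumors, against 96.4, 90.2, 101 and 110 CPM in controls. The groups overlapped (log2 fold change 0.11, standard error 0.10; two-sided exact permutation test, p = 0.171). Of 15 symbols listed for p53 and its regulators, 13 were tested, 0 were called and 0 had an unadjusted p under 0.05 in edgeR, with a median log2 fold change of 0.03. The smallest unadjusted p belonged to Trp63 (1.01 ± 0.331 and 0.629 ± 0.269 CPM in photoconverted and control tumors), Rchy1, a ubiquitin ligase for p53 (27.4 ± 1.58 and 24.3 ± 2.83 CPM), and Trp53bp1, a DNA damage adaptor (64.1 ± 4.79 and 70.6 ± 4.88 CPM; SD, n = 4 for all). Trp63 is the p53 relative of basal keratinocytes, and the 8 keratinocyte markers, which include it, summed to 3.21 to 26.6 CPM in photoconverted tumors, against 3.30 to 5.79 CPM in controls. Photoconverted tumors 1 to 4 had 0.625, 0.853, 1.18 and 1.37 CPM of Trp63, with marker sums of 3.30, 23.5, 26.6 and 3.21 CPM. Control tumors 1 to 4 had 0.485, 0.321, 0.853 and 0.855 CPM of Trp63, with marker sums of 4.17, 4.28, 5.79 and 3.30 CPM. Trp63 was near the floor in all 8 tumors, and it was highest in the tumor with the lowest sum. The part of keratinocytes in the Trp63 values was not tested.

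Genes that repair DNA were examined beside the damage response. Of 19 nucleotide excision repair genes, which remove bulky and light-induced lesions, all 19 were tested, 0 were called and 0 had an unadjusted p under 0.05 in edgeR, with log2 fold changes between -0.20 and 0.18. Ercc1, the partner of the nuclease XPF, had 22.2 ± 1.01 CPM in photoconverted tumors, against 20.1 ± 1.25 CPM in controls, Ercc8 had 9.59 ± 1.13 and 8.43 ± 1.08 CPM, and Rad23b, a partner of the lesion sensor XPC, had 281 ± 33.9 and 322 ± 52.9 CPM (SD, n = 4 each). Of 12 genes for the repair of oxidized and other damaged bases, 11 were tested, 0 were called and 0 had an unadjusted p under 0.05 in edgeR. Their median log2 fold change was -0.12, and 10 of the 11 were below 0, as were 7700 of all 14468 genes. The median was 0.0059 without control tumor 4, -0.20 without photoconverted tumor 4, -0.0059 in the 5 tumors with a low Rn45s share and 0.05 with the muscle score as a covariate. The smallest p belonged to the glycosylases Neil1 (-0.29), Ung (-0.28) and Neil3 (-0.17). The groups overlapped for these 3 genes, with two-sided exact permutation p between 0.229 and 0.571.

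The partners of the GADD45 proteins and p21 held 15 tested genes, 0 called, and a median log2 fold change of 0.01. Map2k3, a kinase that activates p38, had 124, 130, 129 and 108 CPM in photoconverted tumors, against 87.4, 101, 93.7 and 106 CPM in controls. Its groups did not overlap (log2 fold change 0.34, standard error 0.11; two-sided exact permutation test, p = 0.0286, the smallest p possible), although its adjusted p was 0.999 in edgeR. Such an order was held by 1 of 15 genes of this list and by 0.684% of all genes, a count too small to be read. Map3k4, the kinase that GADD45 proteins bind, had 59.8 ± 3.68 CPM in photoconverted tumors, against 68.2 ± 6.51 CPM in controls, and Cdk2, a target of p21, had 47.2 ± 3.57 and 52.6 ± 5.28 CPM (SD, n = 4 each). Among 8 tested relatives of the members, Phlda1 had the smallest p, with 42.6, 39.9, 58.9 and 25.1 CPM in photoconverted tumors, against 9.08, 25.4, 10.9 and 34.1 CPM in controls. Its log2 fold change was 1.08 (standard error 0.43; two-sided exact permutation test, p = 0.0857), and in the 5 tumors with a low Rn45s share it was 2.23 (adjusted p = 0.0101 in edgeR). Cdkn1b, which encodes the p27 inhibitor next to p21, had 35.9 ± 3.72 and 39.7 ± 5.43 CPM (SD, n = 4 each).

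The p53 targets are set beside the early response and heat shock genes because these lists had the largest medians. Of 16 immediate early genes, 0 were called and 13 had a log2 fold change above 0, with a median of 0.42. Egr1 (log2 fold change 2.65), Atf3 (1.54) and Nr4a1 (0.60) had the smallest unadjusted p of that list. Of 10 heat shock genes, 0 were called, all 10 were above 0, and the median was 1.71. With the muscle score as a covariate the median was 1.08. Hspb1 (log2 fold change 3.55), Hsph1 (1.81) and Cryab (1.62) had the smallest unadjusted p. Hsph1 had 914, 718, 1097 and 256 CPM in photoconverted tumors, against 164, 194, 184 and 308 CPM in controls, so that photoconverted tumor 4 was within the control range. At an unadjusted p under 0.05 edgeR held 5 of the 16 immediate early and 9 of the 10 heat shock genes, against 2.23% of all genes. DESeq2 called 1 and 3 of them and 0 genes of each other list, against 0.143% of all genes. Both lists were chosen with earlier results of these data known, so that these counts are a description and not a test. The member with the largest value, Gadd45g at 0.70, was below all heat shock genes of the list except Hspe1 (0.54) and Hspd1 (0.32). In the plot of lists, the members and the other p53 targets spread about the median of all genes.

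**Figure D4:**
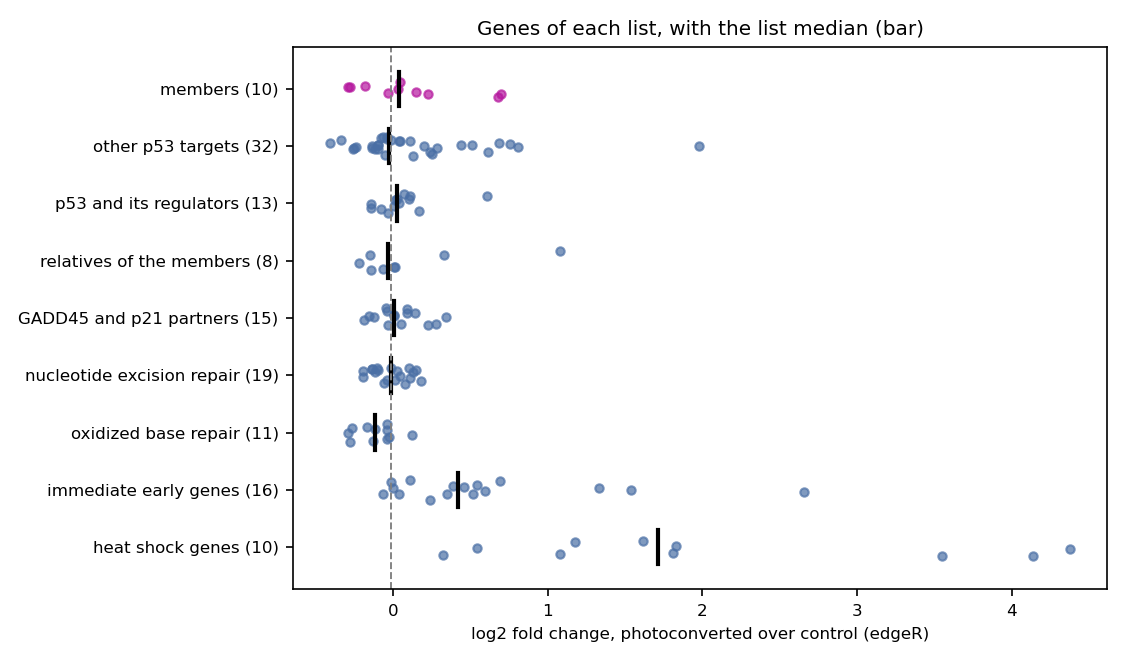
Each point is the log2 fold change of a gene in photoconverted over control tumors from edgeR (x axis), by list with the number of genes tested, a bar for the list median and a dashed line for the median of all genes tested. The medians of the members and of the other p53 targets lie at 0.04 and -0.03, near the dashed line at -0.01, whereas those of the immediate early and heat shock genes lie at 0.42 and 1.71.

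The genes most like a member over the 8 tumors were found by Pearson's r of log2 CPM for the 4 members with the smallest p. These values share the same libraries and depth and are a description. Mdm2 was most like Slc5a5 (r = 0.96), G0s2 (r = 0.96) and Errfi1 (r = 0.96). Errfi1, the feedback inhibitor of the EGF receptor, had 50.2 to 130.4 CPM in photoconverted tumors, against 30.5 to 49.9 CPM in controls. Genes most like Plk2 included Clk2 (r = 0.97) and Ptgs2 (r = 0.96), and Ptgs2, the inducible cyclooxygenase, had 40.5 to 112 CPM in photoconverted tumors, against 21.3 to 59.8 CPM in controls. Gadd45g was most like Nol3 (r = 0.98), Mir207 (r = 0.97) and Lif (r = 0.97), a cytokine of the IL-6 family with 29.5 to 61.7 CPM in photoconverted tumors, against 19.3 to 36.7 CPM in controls. Bbc3 was most like Rnh1 (r = 0.997), Vps37c (r = 0.99) and Prr12 (r = 0.99).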

How the data were processed

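RNA of 8 whole tumors was sequenced, 4 photoconverted and 4 control. Unnormalized counts by gene symbol were deposited by the authors, together with a table of normalized values (unit signal), which equaled the counts divided by DESeq2's size factors (0.416 to 1.77). The submitters' processing notes name Trim Galore, HISAT2, featureCounts, DESeq2 and the build mm10. The annotation and the strand setting of counting are not given in the sources used here. Samples were grouped by their titles, and columns were matched by the letter in the labels.

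Counts were tested with edgeR 4.0.16 in R 4.3.3 (TMM, filterByExpr, glmQLFit, glmQLFTest, Benjamini-Hochberg over all 14468 genes, threshold 0.05). Standard errors were the log2 fold change over the square root of F, and 95% intervals used the fit's degrees of freedom. Exact permutation tests used log2 CPM with a prior count of 2 over 70 arrangements. Exon lengths were unions of GENCODE vM21 exons. Alternatives used DESeq2 1.42.0, limma 3.58.1 on log2 of the normalized values plus 1, other scaling and filters, covariates, the replicate block and each tumor left out. Procedures were tested on simulated data.

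The members and lists were chosen with earlier results of these data known. Genes were named as all members, up to 3 genes of a list with the smallest p, and the 3 genes most like each of the 4 members with the smallest p, but 2 genes that this rule names are not reported here. Trp53, Epha2, Perp, Pmaip1, Hspe1 and Hspd1 were chosen after their values were seen, as was the order of the lists. Deviations from the group mean were correlated across genes between photoconverted and control tumors. Same-numbered tumors had r between 0.107 and 0.623 (mean 0.433), and other numbers had a mean of -0.134. Centering within groups ties these means together, so that the second is no separate contrast. Photoconverted tumor 3 had r = 0.48 with control tumor 1, above its r = 0.41 with control tumor 3. The shared numbers come from the sample titles, which state no pairing. No 2 libraries of one group agreed within sampling noise. The part of counting error in the member values was not estimated. This includes the narrow Mdm2 gap between photoconverted tumor 4 (715 counts) and control tumor 4 (788 counts).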

Additional observations from a re-analysis of the deposited data

How the results depend on the processing

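No member passed the adjusted threshold under any alternative, and the lowest adjusted p was 0.0603 for Gadd45g (edgeR, the 5 tumors of low Rn45s share). With the replicate block, which pairs same-numbered tumors, 0 genes were called and the log2 fold changes were 0.22 for Mdm2, 0.73 for Gadd45g and 0.67 for Plk2, so that the block changed no call. DESeq2's Wald test called 24 genes (0.143% of all genes), among them 1 of 16 immediate early and 3 of 10 heat shock genes. The 5 tumors gave 42 called genes (0.275% of all genes). Among the listed genes these were 1 of 32 other p53 targets, 1 of 10 relatives of the members, 2 of 16 immediate early and 4 of 10 heat shock genes. There Bbc3 (0.19) and Phlda3 (0.0039) reversed in log2 fold change, and the medians of other p53 targets, relatives and immediate early genes were 0.15, 0.059 and 0.91. The median of other p53 targets was 0.082 with the log2 Rn45s share and 0.076 with the muscle score as a covariate, and that of nucleotide excision repair was 0.055 with the muscle score. The cause of these shifts was not tested.

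With each tumor left out in turn, 0 to 11 genes were called, with 11 without photoconverted tumor 4, and 0 to 1 immediate early and 0 to 2 heat shock genes. The log2 fold changes ranged from -0.10 to 0.22 for Cdkn1a, from -0.27 to 0.52 for Gadd45a, from -0.00088 to 0.36 for Gadd45b, from -0.15 to 0.048 for Ccng1, from -0.34 to 0.078 for Phlda3 and from -0.52 to 0.0041 for Trp53inp1, so that the sign of these 6 depended on single tumors. Mdm2 (0.18 to 0.27), Gadd45g (0.44 to 0.92) and Plk2 (0.49 to 0.88) stayed above 0, and Bbc3 (-0.51 to -0.012) below 0. The medians ranged from -0.081 to 0.12 for other p53 targets and from -0.049 to 0.045 for nucleotide excision repair. With 4 tumors a group, the parts of tumor spread and of counting error in the width of the members' intervals were not separated.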

Other observations

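Perp, a p53 target that also builds desmosomes in skin, had 0.275, 2.12, 2.13 and 0.0683 CPM in photoconverted tumors 1 to 4 and 0.0571, 0.642, 0.498 and 0.122 CPM in control tumors 1 to 4. The keratinocyte markers summed to 3.30, 23.5, 26.6 and 3.21 CPM in photoconverted and 4.17, 4.28, 5.79 and 3.30 CPM in control tumors. The 2 tumors with the most Perp were thus the 2 with the most keratinocyte RNA, both photoconverted. Perp was near the floor in several tumors, with 0.0683 CPM in photoconverted tumor 4 and 0.0571 and 0.122 CPM in control tumors 1 and 4. Its log2 fold change of 1.98 (standard error 1.00, adjusted p = 0.999 in edgeR) was the largest of the other p53 targets but rests on these low levels. The part of skin in it was not tested.

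Pmaip1, which encodes the BH3-only protein NOXA, had 7.13, 6.38, 7.17 and 3.01 CPM in photoconverted and 5.62, 2.78, 4.44 and 2.50 CPM in control tumors. Photoconverted tumors 1 to 3 were above every control tumor, an order that Bbc3, the other BH3-only target, did not have. The log2 fold change of Pmaip1 was 0.61 (standard error 0.35; two-sided exact permutation test, p = 0.171).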
